A study of Mus musculus with 2 samples.

Results

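The nuclei described here were those of fetal mouse brain that carried RNA of Tcf7l2, together with RNA of genes used to mark thalamic neurons. They were chosen from 1 single-nucleus RNA-seq library labelled wildtype and 1 labelled Cav1 knockout, each from whole brain of fetal mice. The labels give no fetal day, sex, strain, allele or number of pooled animals, and no treatment. Cav1 encodes caveolin 1, a protein that forms small pits of the plasma membrane called caveolae. A nucleus was counted as a Tcf7l2 nucleus when it held at least 3 Tcf7l2 UMIs (unique molecular identifiers, each standing for 1 captured RNA) and a sum of at least 2 UMIs of Ntng1, Prox1, Gbx2, Shox2 and Slc17a6. It could hold at most 1 UMI of Tfap2d, Pou4f1, Gata2, Gata3 and Dlx6os1 together, genes of other neurons, and at most 2 of Slc1a3, Fabp7 and Hes5, genes of progenitors and glia. Of 13366 nuclei with at least 500 detected genes and at most 5% mitochondrial UMIs, called kept nuclei, 486 met the rule. These were 285 of 6686 in the wildtype-labelled library and 201 of 6680 in the knockout-labelled library.

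The thalamus relays sensory and motor signals to the cerebral cortex through glutamatergic projection neurons. Tcf7l2 encodes a transcription factor that acts with beta-catenin at the end of the Wnt pathway, and its RNA stays high in postmitotic neurons of the thalamus and habenula, and is also found in pretectum and midbrain. Prox1, Gbx2 and Shox2 encode transcription factors of the developing thalamus, Ntng1 encodes netrin-G1, an adhesion protein of thalamic axons, and Slc17a6 encodes the vesicular glutamate transporter VGLUT2.

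The median Tcf7l2 nucleus held 3250 UMIs of 1944 genes when wildtype-labelled, and 3667 UMIs of 2084 genes when knockout-labelled. All other kept nuclei had medians of 2098 and 2329 UMIs. Together the Tcf7l2 nuclei held 1091510 and 883506 UMIs. Of the deposited barcodes, 43 occurred in both libraries, and 1 of these was a Tcf7l2 nucleus. With 1 library per genotype there is no replicate, so no test between genotypes was made. Intervals cover counting error at the 95% level only. Levels are given as CPM, a gene's share of all UMIs of a sum, scaled to the same total for every sum. The summed level of Cav1 did not separate the labels, as it was 4.34 CPM in the other wildtype-labelled nuclei and 3.90 in the other knockout-labelled nuclei. 3′ counting does not show which exons were present, so the libraries are named by their labels.

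The values that chose the nuclei are given as a description. Tcf7l2 itself gave 1915 UMIs (wildtype-labelled) and 1435 UMIs (knockout-labelled), which are levels of 1754 and 1624 CPM against 246 and 247 CPM in the other nuclei. The highest count in 1 nucleus was 25 and 29. Ntng1 carried most of the support. It was found in 90.9% and 84.1% of the Tcf7l2 nuclei, and alone met the support limit in 85.3% and 78.1%. Slc17a6 was found in 59.6% and 68.2%, Prox1 in 34.7% and 27.9%, and Shox2 in 11.2% and 15.9%. Gbx2 was found in 7 and 4 nuclei, so this marker of early thalamic neurons took almost no part in the choice. Of the 674 and 642 kept nuclei with at least 3 Tcf7l2 UMIs, 119 and 95 failed the support limit only. The limit on other neuron genes alone removed 62 and 105, and the limit on glial genes alone removed 72 and 89.

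Just inside the Tcf7l2 limit stood 37 and 38 nuclei with 3 Tcf7l2 UMIs, and just outside it 42 and 40 nuclei with 2 that met every other condition. The level of Rnf220, which the rule did not use, was 1493 and 1070 CPM just inside, and 1827 and 1300 CPM just outside. The nuclei on both sides of the limit had like levels of this gene, and 191 and 129 nuclei held 5 or more Tcf7l2 UMIs. Fabp7, a gene of radial glia on which the rule set a limit, still had a UMI in 174 of 285 and 134 of 201 Tcf7l2 nuclei. Its level was 214 and 203 CPM, against 501 and 512 CPM in the other nuclei. A UMI in a nucleus is not read here as a mark of its kind. Whether these UMIs came from the nuclei themselves or from free RNA was not tested.

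Of wildtype-labelled kept nuclei, 4.26% (exact binomial interval 3.79 to 4.77%) were Tcf7l2 nuclei, and of knockout-labelled ones 3.01% (2.61 to 3.45%). The share was lower by 1.25 percentage points in the knockout-labelled library, with a counting interval for the difference of -1.89 to -0.62. Without the limit on other neuron genes the shares were 5.19% and 4.58%, and the interval of that difference, -1.34 to 0.12, included 0. The 12 hindbrain genes of a list summed to 1.18 CPM in the other wildtype-labelled nuclei and to 39.1 CPM in the other knockout-labelled nuclei, so other regions differed between the libraries too, and their part in the share was not tested. The spread between animals is unknown, and fewer nuclei of a kind cannot be told apart from a different capture or dissection.

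**Figure D1:**
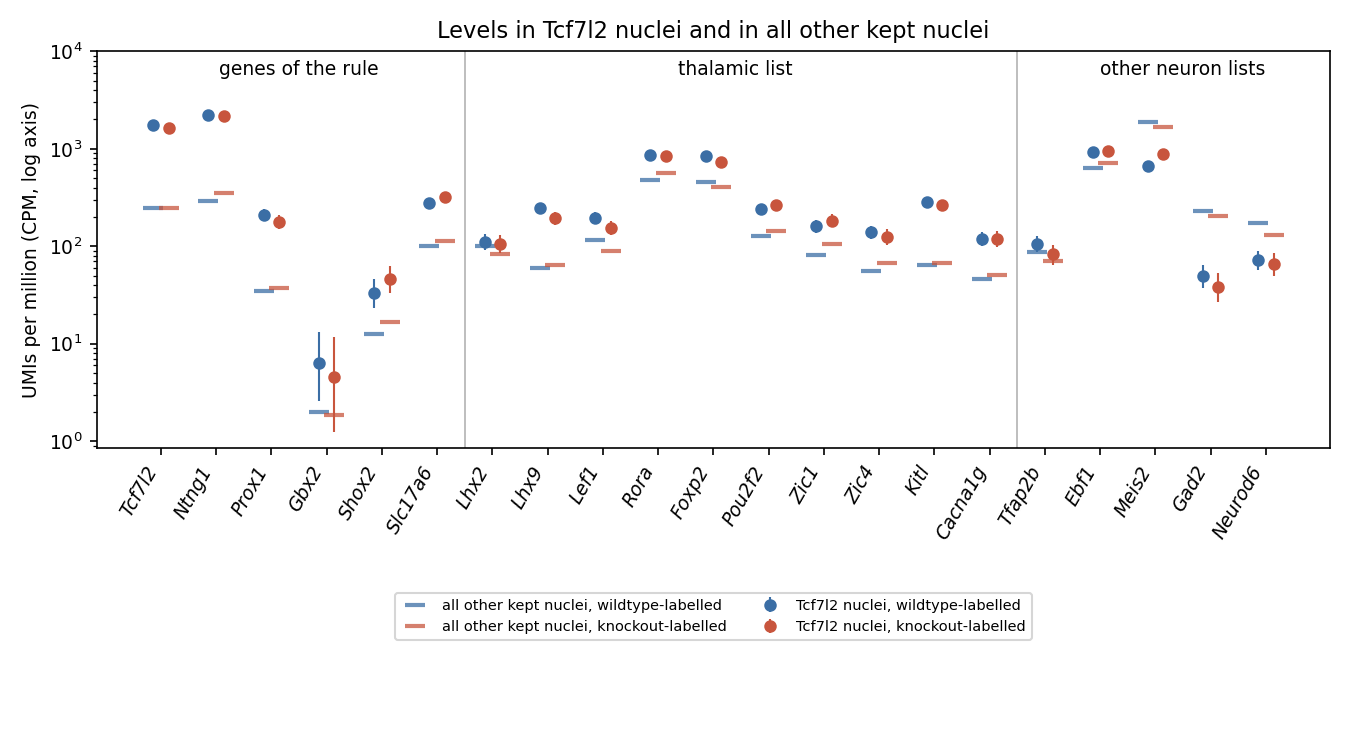
Levels in CPM (log axis) of 21 genes in the summed UMIs of Tcf7l2 nuclei (points with exact Poisson 95% intervals) and of all other kept nuclei (dashes), in the wildtype-labelled (blue) and knockout-labelled (red) library. Kitl and Lhx9 of the thalamic list lie well above the dashes in both libraries, and Gad2 and Neurod6 lie below them.

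The comparison of Tcf7l2 nuclei with the rest asks what else these nuclei expressed, and divides their CPM by that of all other kept nuclei of the same library. Of 7388 genes with at least 20 UMIs in the Tcf7l2 nuclei of each library and no part in the rule, 84 (1.14%) were higher by 2-fold or more in both libraries. Against only those other nuclei with a Slc17a6 UMI, 36 were, and 1 such UMI does not by itself mark an excitatory neuron. Of 22 thalamic projection neuron genes, 17 had at least 20 UMIs found or expected in each library. Over that wider set of 8221 genes the share was 1.02% higher and 1.41% lower, and of the 17 thalamic genes 5 were higher by 2-fold or more, 0 were lower by as much, and 15 lay above the other nuclei in both libraries, as did 28.5% of the 8221 genes, while 42.8% lay below in both. Their median log2 ratio was 0.93 and 0.79, beside -0.09 and -0.04 over the 8221 genes. These genes lie in the cells the rule selected, so the counts describe the nuclei and are no test.

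Among the transcription factors of this list, Lhx9, a LIM homeobox gene of the developing thalamus, gave 270 and 171 UMIs, at 247 and 194 CPM. Its log2 ratio over the other nuclei was 2.06 (1.60 in the knockout-labelled library). Lef1, a relative of Tcf7l2 in the Wnt pathway, had log2 ratios of 0.77 and 0.79. At 197 and 155 CPM it stood below the 454 and 299 CPM of the 60 and 66 nuclei with at least 3 UMIs of Tfap2d and Pou4f1, genes of other diencephalic and midbrain neurons. Foxp2, a forkhead factor of thalamus, cortex and striatum, had 923 and 653 UMIs and log2 ratios of 0.88 and 0.87. Rora, a nuclear receptor of sensory thalamic nuclei, had 938 and 744 UMIs and log2 ratios of 0.84 and 0.59. Zic1, a zinc finger factor of the dorsal neural tube, had log2 ratios of 0.99 and 0.78, and its relative Zic4 of 1.32 and 0.89. Lhx2 stood close to the other nuclei, with log2 ratios of 0.16 and 0.36. Olig3, a gene of thalamic progenitors, had 0 UMIs and 1 UMI.

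Other genes of the thalamic list ranged from undetected to high. Kitl, which encodes the ligand of the receptor KIT, gave 314 and 232 UMIs in 108 and 78 nuclei, with log2 ratios of 2.17 and 1.95. Cacna1g, a T-type calcium channel that serves burst firing in thalamic neurons, gave 130 and 106 UMIs and log2 ratios of 1.38 and 1.25. Cdh6, a cadherin, had log2 ratios of 1.12 and 0.56. Slc6a4, the serotonin transporter that some thalamic neurons carry for a time during development, had 0 UMIs in both libraries. Slc18a2, the vesicular monoamine transporter found in those same neurons and a member of the transmitter list, gave 88 and 92 UMIs with log2 ratios of 1.09 and 1.59. Of this pair, Slc18a2 was measured and Slc6a4 was not detectable at this depth.

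**Figure D2:**
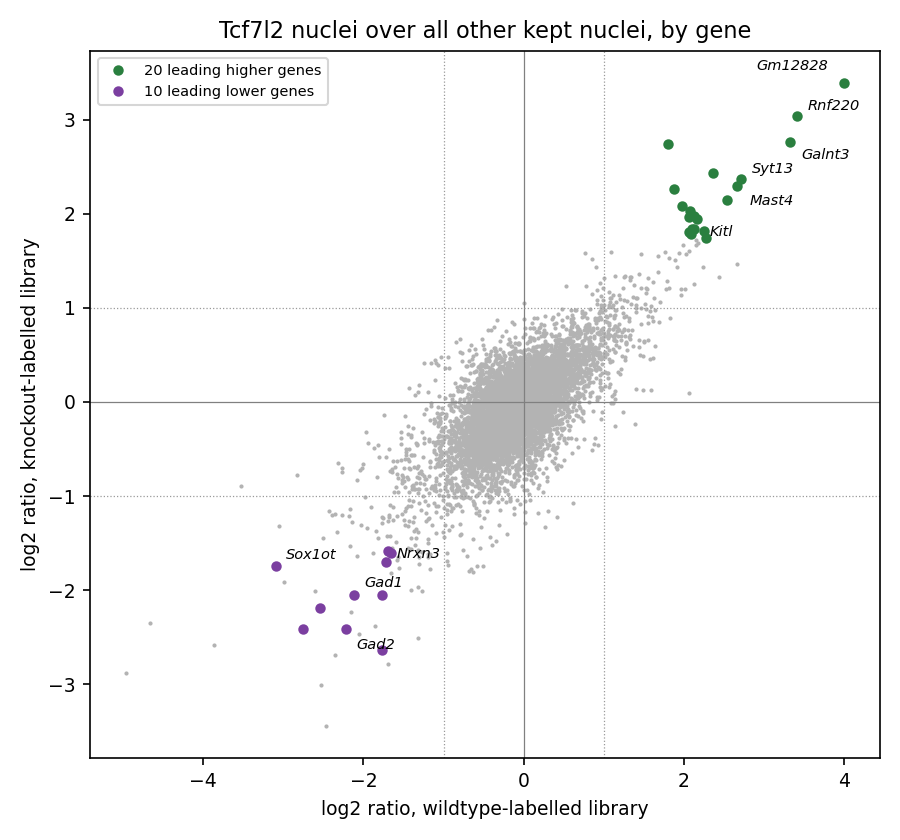
The log2 ratio of CPM in Tcf7l2 nuclei over all other kept nuclei, for each gene outside the rule with at least 20 UMIs found or expected, in the wildtype-labelled (x axis) and the knockout-labelled library (y axis). Genes with 0 UMIs in a group are not drawn, dotted lines mark 2-fold, and Rnf220 and Gm12828 stand at the upper right, with log2 ratios above 3 in both libraries.

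The leading gene with a known protein was Rnf220, at chr4:117128659-117354273 on the minus strand of GRCm39. It encodes a ubiquitin ligase of the RING type that is known to stabilise beta-catenin. It gave 2368 UMIs in 181 wildtype-labelled and 1519 UMIs in 128 knockout-labelled Tcf7l2 nuclei. Its level was 2169 and 1719 CPM, against 203 and 209 CPM in the other nuclei, and the log2 ratio was 3.42 (3.34 to 3.49) and 3.04 (2.95 to 3.12). The noncoding gene Gm12828, at chr4:117303147-117312237, lies inside Rnf220 on the opposite strand and had log2 ratios of 4.0 and 3.39. Whether the counting used the strand is not given in the sources used here, so reads of this pair cannot be told apart.

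Ranked by the smaller of the log2 ratios, the 20 leading genes held several others with known products. Mast4, a kinase linked to microtubules, gave 1162 and 878 UMIs and log2 ratios of 2.66 and 2.29. Syt13, a synaptotagmin of vesicle traffic, had log2 ratios of 2.71 and 2.37. Galnt3, an enzyme of O-linked glycosylation, had only 30 and 24 UMIs, with log2 ratios of 3.33 and 2.76. Glra3, a glycine receptor subunit, had 27 and 22 UMIs and log2 ratios of 2.13 and 1.98. Cntn6, a contactin that joins axons, had 245 and 182 UMIs and log2 ratios of 2.28 and 1.74. Sorcs2, a sorting receptor of neurotrophin signalling, had 465 and 294 UMIs and log2 ratios of 2.06 and 1.81. The other members of the 20 were Prkch, Rtn4rl1, Kitl, Synpo2, Arhgap26, Samd5 and the noncoding genes Prox1os, Gm15511, Gm15336, Gm48749, Gm48727 and Gm32828. Prox1os overlaps the rule gene Prox1 on the opposite strand, Gm15511 overlaps Rora and Gm15336 overlaps Arhgap26 in the same way.

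Promoter sequences are shown because the DNA sites bound by TCF and LEF factors have a short known core. The core was searched as CTTTGA and CTTTGT and their reverse complements TCAAAG and ACAAAG, so both strands were covered. Each RefSeq promoter (GRCm38.p6) spans 250 bases before to 50 after a gene's start. Of the 20 leading genes, 11 matched a promoter entry, and 1 of these 11 promoters (9.09%) held the core, against 10249 of 32851 promoters (31.2%) in all. That promoter was Cntn6, with 2 matches. Kitl, with 0, is shown for contrast. The RefSeq entry of Rnf220 starts downstream of Gm12828 within the gene, not at the outermost start, and is not shown. Lhx9, from the thalamic list and not among the 20, was picked by name and had 2. Other genes of that list outside the 20 were not searched. Of the rule genes searched, Ntng1 had 0, and Prox1 and Tcf7l2 each had 0 in 1 promoter entry and 1 in another. A match is a description of these letters and not a bound site. The promoters of Kitl, Cntn6 and Lhx9 are written 5′ to 3′ on the gene's strand, with the core in capitals.
Kitl, chr10:100015571-100015870, plus strand: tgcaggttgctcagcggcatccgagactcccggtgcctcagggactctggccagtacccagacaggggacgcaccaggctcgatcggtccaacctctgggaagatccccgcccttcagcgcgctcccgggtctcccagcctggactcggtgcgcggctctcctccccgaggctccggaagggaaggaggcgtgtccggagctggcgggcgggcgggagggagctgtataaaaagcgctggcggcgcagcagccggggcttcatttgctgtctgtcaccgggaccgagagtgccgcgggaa
Cntn6, chr6:104492794-104493093, plus strand: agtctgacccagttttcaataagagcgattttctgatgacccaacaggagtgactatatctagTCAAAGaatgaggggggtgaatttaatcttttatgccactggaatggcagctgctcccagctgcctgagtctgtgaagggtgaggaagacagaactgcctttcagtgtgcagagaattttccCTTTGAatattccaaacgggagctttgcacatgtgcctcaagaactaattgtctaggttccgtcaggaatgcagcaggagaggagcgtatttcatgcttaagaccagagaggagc
Lhx9, chr1:138842395-138842694, minus strand: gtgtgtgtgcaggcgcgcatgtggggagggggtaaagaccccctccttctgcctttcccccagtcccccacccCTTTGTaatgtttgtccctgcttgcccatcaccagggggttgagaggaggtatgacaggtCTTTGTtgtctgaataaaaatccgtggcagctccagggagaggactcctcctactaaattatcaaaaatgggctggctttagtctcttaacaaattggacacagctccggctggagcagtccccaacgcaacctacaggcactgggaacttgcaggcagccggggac

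Genes of GABA neurons were low, but the rule used Slc17a6 and limited Gata2, Gata3 and Dlx6os1, genes of such neurons, so the choice itself bears on these values. Slc17a6 was found with no Gad1 or Gad2 UMI in 150 of 285 (52.6%) and 116 of 201 (57.7%) Tcf7l2 nuclei, and together with Gad1 or Gad2 in 20 and 21. Gad2, an enzyme of GABA synthesis, gave 54 and 34 UMIs with log2 ratios of -2.22 and -2.41 over the other nuclei. Gad1 had log2 ratios of -2.11 and -2.06. Of 8 measured genes of inhibitory diencephalic and midbrain neurons, 5 were lower by 2-fold or more in both libraries and 0 were higher. Over the 8221 genes these shares were 1.41% and 1.02%. Slc17a7, the transporter VGLUT1 of cortical neurons, had 4 UMIs and 1 UMI. Among 3932 genes with at least 50 UMIs expected from the other nuclei, 41 (1.04%) were lower by 2-fold or more in both libraries. Among the 10 lowest were Gad1, Gad2, Zeb2, Tnc and Nrxn3, and the noncoding genes Gm14204, Gm38505, 8030451A03Rik and Sox1ot. Nrxn3, a presynaptic adhesion gene, still gave 1126 and 935 UMIs, with log2 ratios of -1.72 and -1.70. Gm14204 overlaps Slc32a1, the GABA transporter gene, on the opposite strand, and had 12 and 11 UMIs. Of 9 measured cortical excitatory genes, 3 were lower by 2-fold or more and none was higher by as much, beside the same 1.41% and 1.02%.

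Of 41 measured transmitter and receptor genes, 34 were above the other nuclei in both libraries, beside 28.5% of all genes, and 5 by 2-fold or more, beside 1.02%. Grm8, a metabotropic glutamate receptor, had log2 ratios of 1.78 and 1.29, and Gabrb1, a GABA-A receptor subunit, 1.55 and 1.32. Of 31 measured ion channel genes, 25 were above in both libraries and 2 reached 2-fold, namely Cacna1g and Kcnj6, against the same 28.5% and 1.02%. Kcnj6, an inward rectifier potassium channel, had log2 ratios of 1.92 and 1.44. Its level was 105 and 98.5 CPM, against 98.5 and 36.9 CPM in the nuclei with at least 3 UMIs of Tfap2d and Pou4f1. The other nuclei include non-neuronal cells, so these values set neurons against a mixture. Of 28 measured energy and lipid metabolism genes, 0 passed 2-fold in either direction, a count near the 1.02% higher and 1.41% lower of all genes.

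Genes of the Wnt pathway lay above the other nuclei about as often as all genes did, and below them somewhat more often. Of 60 genes, 30 were measured, 0 were higher by 2-fold or more, and 4 were lower, beside 1.02% and 1.41% of the 8221 genes. In both libraries 8 lay above and 16 below the other nuclei, beside 28.5% and 42.8%. The median log2 ratio was -0.27 and -0.12, beside -0.09 and -0.04 over all genes. The scaffold gene Axin1 had log2 ratios of 0.54 and 0.65, and Nkd1, a feedback inhibitor, 1.05 and 0.75. Axin2, a common target gene of the pathway, had 31 and 27 UMIs and log2 ratios of -0.39 and -0.12. Tcf7l1, a relative of Tcf7l2, had log2 ratios of -1.40 and -1.57. Among guidance and adhesion genes 2 of 52 measured were higher by 2-fold or more, and these were the contactins Cntn4 and Cntn6. In the same list 1 was lower by as much, and the shares over all genes were 1.02% and 1.41%. Cntn4 had 982 and 839 UMIs and log2 ratios of 2.15 and 1.67.

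Genes of neighbouring regions were not all low. For each list here, the shares over the 8221 genes were 1.02% higher and 1.41% lower by 2-fold or more. Above the other nuclei in both libraries lay 28.5% of these genes, and below in both 42.8%. Of 10 measured midbrain and pretectal excitatory genes, 0 passed 2-fold in either direction, with 4 above and 4 below the other nuclei in both libraries. Ebf1, a helix-loop-helix factor of early neurons, gave 1013 and 839 UMIs and log2 ratios of 0.54 and 0.42. Tfap2b, found in midbrain neurons, had log2 ratios of 0.27 and 0.23. Of 5 measured habenula genes, 0 were higher by 2-fold or more and 1 was lower. The rule limits Pou4f1, a gene of habenula neurons, so the choice bears on this count. The 1 measured hypothalamic gene, Agrp, had log2 ratios of -0.10 in both libraries. It made up 42.1 and 48.7 CPM of the 55.0 and 57.7 CPM to which the hypothalamic list summed. Agrp stood at 44.6 and 48.5 CPM in the nuclei with at least 3 UMIs of Neurod2 and Neurod6 too. It is therefore not read as a mark of hypothalamic neurons. Of 12 hindbrain genes, 5 had a UMI, with summed UMIs of 1 and 15. This list summed to 1.18 and 39.1 CPM in the other nuclei. Summed progenitor and glial genes outside the rule stood at 209 and 224 CPM in the Tcf7l2 nuclei, against 454 and 410 CPM in the others, with no gene of the 12 at 0 in both, and 1 of 5 measured was lower by 2-fold or more. Summed vascular, meningeal, blood and choroid genes stood at 1053 and 904 CPM, against 1588 and 1461 CPM. Of its 11 measured genes 2 were lower by 2-fold or more and 0 higher, and their part in the results was not tested.

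At equal depth, 4 of the 20 leading genes, Rnf220, Mast4, Syt13 and Kitl, were compared with a pair of other neuron groups. Both groups belong to the nuclei over which these genes were ranked, so the shares are a description. For this, each nucleus was reduced at random to 2000 UMIs, leaving out 41 and 13 shallower Tcf7l2 nuclei. Rnf220 had a UMI in 60.7% (54.2 to 66.8%) and 57.4% (50.04 to 64.6%) of them, and before thinning in 63.5% and 63.7%. In nuclei with at least 3 UMIs of Neurod2 and Neurod6, genes of cortical excitatory neurons, it was 10.5% and 7.88% at equal depth, and 17.3% and 14.1% before. Those 352 and 291 nuclei had median depths of 2780 and 3034 UMIs. In the Tfap2d or Pou4f1 nuclei, the Rnf220 share at equal depth was 4.35% and 13.5%. The others of the 20 were not compared at equal depth, and not all stood apart from this group. Glra3, a gene of few UMIs, stood at 24.7 and 24.9 CPM in Tcf7l2 nuclei, against 16.4 and 25.8 CPM in the Tfap2d or Pou4f1 nuclei. Lhx9 did not separate the Tcf7l2 nuclei from this last group beyond counting error. It had a UMI in 36.1% and 29.8% of Tcf7l2 nuclei, against 28.3% and 23.1% of the Tfap2d or Pou4f1 nuclei, with overlapping intervals. Gad2 stood at 8.20% and 6.38% of Tcf7l2 nuclei at equal depth, near the 5.82% and 7.88% of the cortical group that should lack it.

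**Figure D3:**
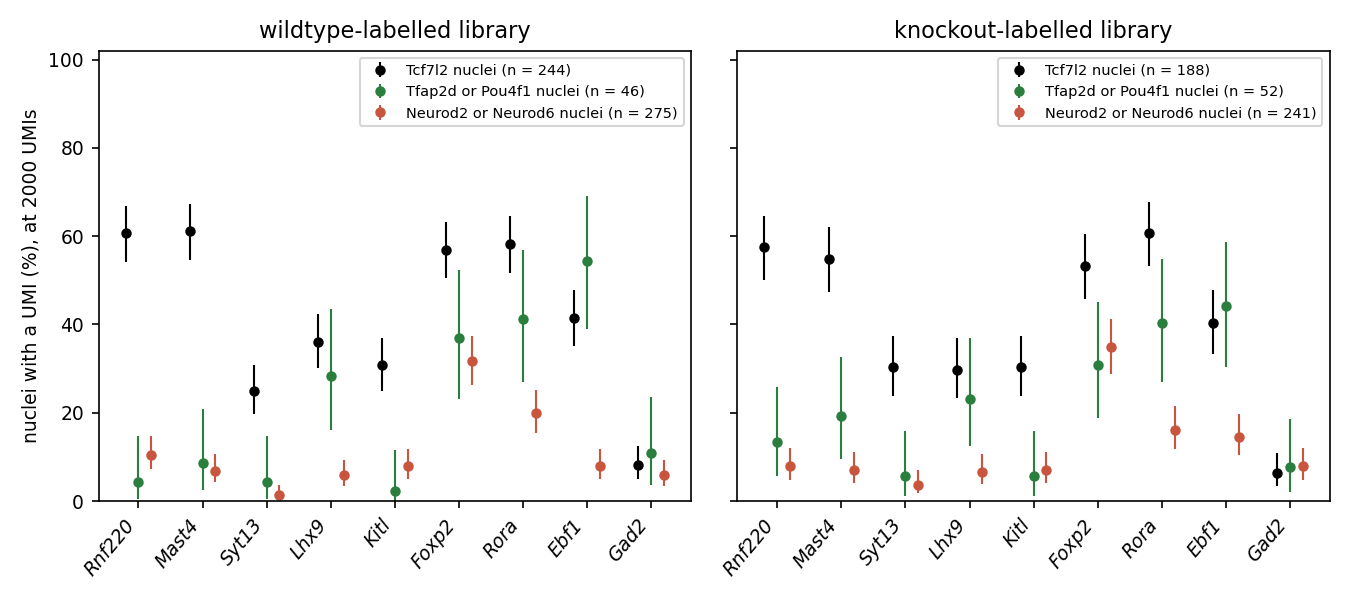
Share of nuclei with a UMI of each gene after thinning to 2000 UMIs per nucleus, with exact binomial 95% intervals, in the wildtype-labelled (left) and knockout-labelled (right) library. For Rnf220, Mast4, Syt13 and Kitl the Tcf7l2 nuclei (black) lie above both comparison groups, and for Ebf1 the Tfap2d or Pou4f1 nuclei (green) reach the same range.

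The Tcf7l2 nuclei were not of 1 kind. Clustering of the 486 nuclei without the genes of the rule gave 5 clusters, which are described by number because their genes came from the same nuclei. Clusters 2 (75 wildtype-labelled and 36 knockout-labelled nuclei) and 4 (42 and 32) held the thalamic list at 5822 and 6302 CPM in sum. It summed to 4823 CPM in cluster 5, 3083 CPM in cluster 3 and 2520 CPM in cluster 1, and to 2246 CPM in all other kept nuclei. Rnf220 stood at 4763 CPM in cluster 2 and 4758 CPM in cluster 4, and had a UMI in 97.3% and 100% of their nuclei. Cluster 2 was led by Chst1, Rorb and Mast4, and held Foxp2 at 1532 CPM and Lhx9 at 431 CPM. Cluster 4 had Slc18a2 among its leading genes, at 364 CPM, with Kitl at 820 CPM, Rora at 1862 CPM and Cntn6 at 688 CPM. Slc18a2, Kitl and Rora were all highest in this cluster.

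Cluster 1, with 159 nuclei (89 and 70) the most numerous, had another pattern. Rnf220 stood at 229 CPM and Kitl at 60 CPM, and of the rule genes Prox1 at 24 CPM and Tcf7l2 at 1814 CPM. It was led by Il1rapl2, held Ebf1 at 1378 CPM and Tfap2b at 219 CPM, and the midbrain and pretectal list summed to 3832 CPM there. That list summed to 3426 CPM in all other kept nuclei, 3107 CPM in cluster 3, 2522 CPM in cluster 5, 1165 CPM in cluster 2 and 1049 CPM in cluster 4. Of the 5 clusters, cluster 1 had the lowest sum of the thalamic list and the highest of the midbrain and pretectal list, though both stood close to those of the other nuclei. As the thalamic list was that uneven between clusters, the name Tcf7l2 nuclei is used throughout.

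Cluster 5, with 42 nuclei (20 and 22), had Rspo3, a secreted amplifier of Wnt signalling, at 510 CPM, and Nrp2, a semaphorin receptor, at 556 CPM. Of the thalamic list, Lhx9 at 556 CPM, Lhx2 at 206 CPM, Zic1 at 434 CPM and Zic4 at 472 CPM were higher there than in the other clusters. Dcc, the netrin receptor, stood in cluster 5 at 2941 CPM (wildtype-labelled) and 10603 CPM (knockout-labelled), and in cluster 4 at 123 and 610 CPM. In the wildtype-labelled library Dcc was higher still in cluster 3, at 3152 CPM. Cntn4 and Cntn6 had 0 UMIs in cluster 5. Cluster 3, with 100 nuclei (59 and 41), had a median of 5856 UMIs and was led by Gm29260. It held the proliferation gene Top2a at 97 CPM, below the 134 and 111 CPM of all other kept nuclei. Of its nuclei 38 were among the 8% highest doublet scores of their library, against 0 in cluster 4, 1 in cluster 2, 5 in cluster 1 and 4 in cluster 5. Without cluster 3, 128 genes were higher by 2-fold or more over the other nuclei in place of 84.

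**Figure D4:**
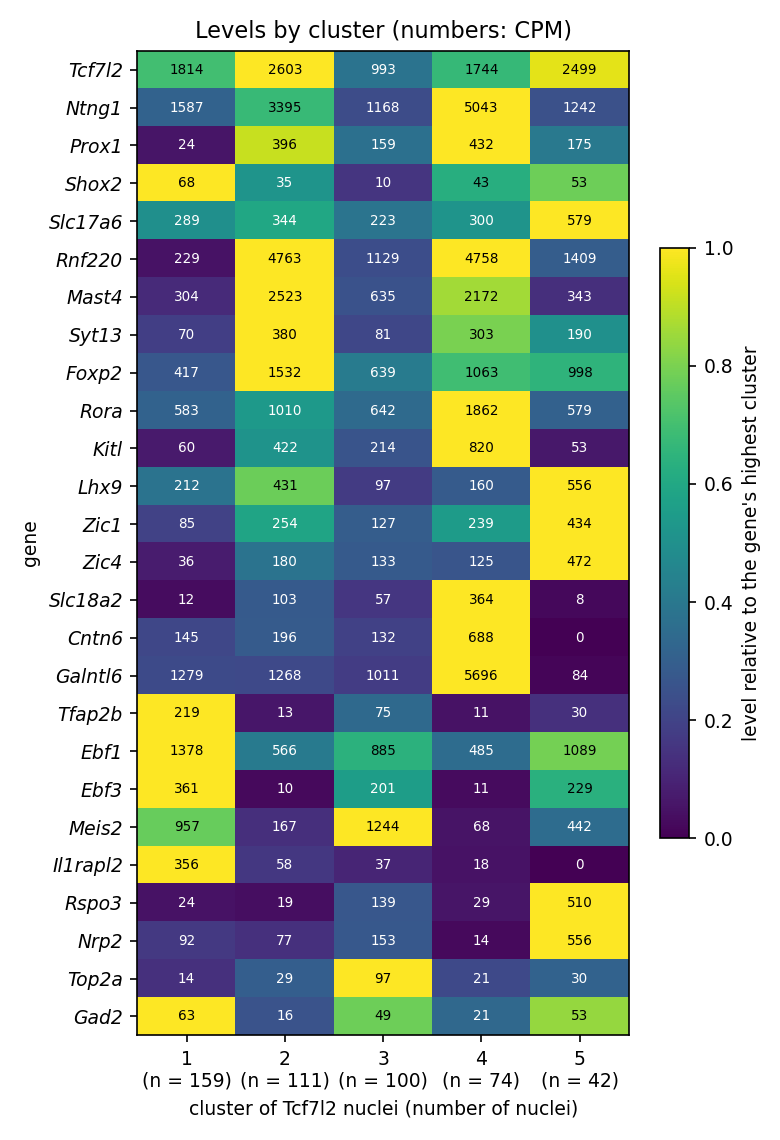
Levels in CPM (printed in each field) of 26 genes in the 5 clusters of Tcf7l2 nuclei from both libraries, coloured relative to the cluster where the gene is highest. Rnf220 and Mast4 are high in clusters 2 and 4, Tfap2b, Ebf3 and Il1rapl2 in cluster 1, Top2a in cluster 3, and Rspo3 and Nrp2 in cluster 5.

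The last comparison asks how Tcf7l2 nuclei of the knockout-labelled library differed from those of the wildtype-labelled library. Outside the Cav1 region few well-measured genes differed much. Of 7064 genes with at least 50 UMIs over both libraries, 32 (0.453%) were higher by 2-fold or more in the knockout-labelled library and 24 (0.34%) were lower. In the other kept nuclei, whose sums rest on far more UMIs, 6 (0.0849%) and 1 (0.0142%) of the same genes were. The median log2 ratio was 0.00 in the Tcf7l2 nuclei, with 5% of genes below -0.50 and 5% above 0.53. Counting intervals lay above 0 for 332 genes (4.7%) and below 0 for 316 (4.47%). Each value sets 1 library against 1 library, so a difference between animals cannot be told apart from a difference between genotypes.

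The strongest differences lay next to Cav1 on chromosome 6. Gm15581, a noncoding gene at chr6:17206822-17385603 that overlaps Cav1 and Cav2 on the opposite strand, gave 2 UMIs in 2 wildtype-labelled nuclei and 130 UMIs in 64 knockout-labelled nuclei. Its log2 ratio was 6.33 (4.45 to 9.39), and 4.59 in the other nuclei. Cav2, which encodes the partner of caveolin 1, gave 0 UMIs in wildtype-labelled Tcf7l2 nuclei and 58 UMIs in 39 knockout-labelled ones. Against a floor of 3 UMIs over the wildtype-labelled Tcf7l2 nuclei, it was at least 23.9-fold higher. Cav1 itself, at chr6:17306140-17341451, gave 1 UMI and 6 UMIs. Among the 8 caveola genes of the list, Cavin4 had 32 and 25 UMIs, and Cavin1 had 1 UMI in each library. Rnf121, a RING finger gene on chromosome 7, gave 234 UMIs in 140 wildtype-labelled and 54 UMIs in 42 knockout-labelled nuclei. Its log2 ratio was -1.81 (-2.27 to -1.38), and -1.61 in the other nuclei. The differences of Gm15581 and Rnf121 were thus also present in the other nuclei, and Cav2 had a log2 ratio of 4.98 there.

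The 16 genes of the thalamic list with at least 50 UMIs over both libraries differed by less than 2-fold between them, with a median log2 ratio of -0.14, beside 0.00 over all genes. The counting interval lay below 0 for 5 of them and above 0 for none, beside 4.47% and 4.7% of all genes. Of the 6 genes with fewer UMIs, Calb2, a calcium-binding protein gene, gave 9 and 26 UMIs, a log2 ratio of 1.84 (0.70 to 3.11), and Etv1, an ETS factor, 31 and 12 UMIs, a log2 ratio of -1.06 (-2.16 to -0.06). Lhx9 had a log2 ratio of -0.35 (-0.64 to -0.07) and Foxp2 of -0.19 (-0.34 to -0.05). Kitl had -0.13 (-0.38 to 0.12) and Cacna1g 0.01 (-0.37 to 0.39). Rnf220 had -0.34 (-0.43 to -0.24) over all Tcf7l2 nuclei, and -0.13 (-0.24 to -0.02) within clusters 2 and 4. Cluster 2 made up 75 of 285 and 36 of 201 of the nuclei, so the mixture moved with these values, and its part in them was not tested.

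Of 9 midbrain and pretectal genes tested, counting intervals lay above 0 for 6 and below 0 for none, beside 4.7% and 4.47% of all genes, with a median log2 ratio of 0.39, and 1 was higher by 2-fold or more. That gene was Meis1, a homeobox cofactor, at 44 and 89 UMIs, whose log2 ratio was 1.32 (0.78 to 1.88), and 0.78 in the other nuclei. Meis2 had a log2 ratio of 0.41 (0.26 to 0.55), and of -0.17 in the other nuclei. Ebf3 had 0.39 (0.09 to 0.69) and Ebf2 0.62 (0.17 to 1.07), with the larger values of 0.77 and 0.94 in the other nuclei. Hindbrain genes, at 1.18 and 39.1 CPM in the other nuclei, moved in the same direction, and the part of regional make-up was not tested. Cluster 1, where the list was highest, was 31.2% of the wildtype-labelled members and 34.8% of the knockout-labelled ones. The vascular, meningeal, blood and choroid list had a median of -0.37 over 8 genes. Its intervals lay below 0 for 3 and above 0 for 1, beside 4.47% and 4.7% of all genes. The cortical list had -0.18 over 8 genes, the habenula list -0.19 over 3, the inhibitory list -0.10 over 2 and the progenitor and glial list 0.31 over 2. In these lists intervals lay below 0 for 2 cortical genes and 1 habenula gene, and above 0 for none. The Wnt list had a median of -0.03 over 23 genes and the channel list -0.05 over 30. Intervals lay above and below 0 for 1 and 1 Wnt genes, and for 1 and 5 channel genes. The transmitter list had -0.05 over 36 genes, with 4 above and 6 below, and the guidance list -0.10 over 50. Of these 50, intervals lay above 0 for 8 and below 0 for 14, against 4.7% and 4.47% of all genes. In the guidance list 1 gene was 2-fold higher and 1 lower, beside 0.453% and 0.34%, and Dcc stood at 2049 and 2971 CPM. The 20 and 22 nuclei of cluster 5 gave 173 and 768 of the Dcc UMIs. In cluster 3 Dcc stood at 3152 and 3012 CPM, and the part of cluster 5 in the difference was not tested. For the energy and lipid metabolism list, included because the study's title speaks of metabolic programming, the median was 0.05 over 22 genes, none of which reached 2-fold.

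**Figure D5:**
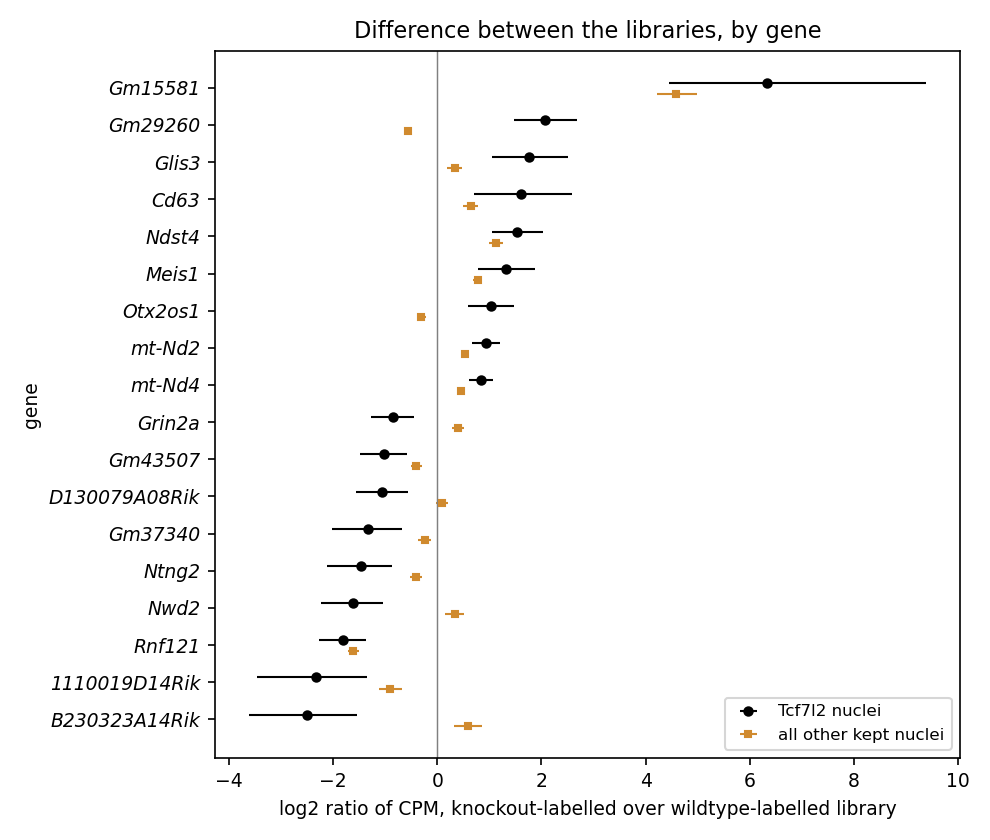
The log2 ratio of CPM, knockout-labelled over wildtype-labelled library, with exact 95% counting intervals, in Tcf7l2 nuclei (black) and in all other kept nuclei (orange), for 18 of the 20 genes with the strongest differences. Gm15581 and Rnf121 differ in the same direction in both sets of nuclei, while B230323A14Rik and Nwd2 lie below 0 in the Tcf7l2 nuclei and above 0 in all other kept nuclei. Cav2, with 0 wildtype-labelled UMIs, has no finite ratio and is not drawn.

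Several of the other large differences came from few nuclei or from 1 cluster. B230323A14Rik, a noncoding gene, gave 70 UMIs in 22 wildtype-labelled and 10 UMIs in 6 knockout-labelled nuclei, a log2 ratio of -2.50 (-3.62 to -1.54). It had 0 UMIs in clusters 2, 4 and 5. In the Tfap2d or Pou4f1 nuclei it gave 23 and 5 UMIs, at 126 and 18.4 CPM, a lower level in the latter library as well. Nwd2, a gene of the habenula list, gave 118 UMIs in 31 nuclei and 31 UMIs in 18 nuclei. Its log2 ratio was -1.62 (-2.24 to -1.04), and 28 of the 118 came from 1 nucleus. Ntng2, the relative of Ntng1, gave 103 and 30 UMIs, a log2 ratio of -1.47, and also had 0 UMIs in clusters 2 and 4. Grin2a, an NMDA receptor subunit, gave 170 and 76 UMIs and had a ratio of -0.86 (-1.27 to -0.46) on the log2 scale, with 0.40 in the other nuclei. Of this set, Nwd2 kept a value of -1.53 and Grin2a of -0.74 within clusters 2 and 4, the latter with an interval that included 0. Other lower genes also kept their difference there. The gene 1110019D14Rik stood at 56.8 and 11.3 CPM, and at 25.9 and 13.8 CPM in the other nuclei. Within clusters 2 and 4 its log2 ratio was -2.79 (-5.14 to -1.10). Gm43507 had -1.47 (-2.47 to -0.58) there and Gm37340 -1.07 (-2.10 to -0.14), whereas D130079A08Rik had only 1 UMI and 0 UMIs.

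In the other direction, Glis3, a zinc finger gene, gave 23 and 63 UMIs in 10 and 14 nuclei, a log2 ratio of 1.76 (1.05 to 2.52), and 15 of the 63 came from 1 nucleus. Ndst4, an enzyme of heparan sulfate synthesis, gave 51 and 119 UMIs, a log2 ratio of 1.53, and 1.12 in the other nuclei. Gm29260 gave 32 and 108 UMIs, a log2 ratio of 2.06, and without cluster 3 it had 3 and 2 UMIs. Otx2os1, which overlaps Otx2 on the opposite strand, had 72 and 119 UMIs, with 38 of the 119 in 1 nucleus, and without cluster 3 it had 27 and 20. For Gm29260 and Otx2os1 the direction of the log2 ratio therefore changed with the nuclei left out.

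Mitochondrially encoded genes were higher and beta-globin genes lower in the knockout-labelled nuclei. Mt-Nd2 gave 192 and 297 UMIs, a log2 ratio of 0.93 (0.67 to 1.20), and mt-Nd4 gave 267 and 385 UMIs, with a log2 ratio of 0.83 (0.60 to 1.06). These ratios in the other nuclei were 0.52 and 0.45. Mitochondrial UMIs made up 0.530% and 0.722% of all UMIs of the Tcf7l2 nuclei, and 0.703% and 0.809% of those of the other nuclei. Hbb-bs, the adult beta-globin gene, gave 409 and 228 UMIs, a log2 ratio of -0.54 (-0.78 to -0.30). Globin RNA is made by erythroid cells, and its part and that of mitochondrial RNA in the other values was not tested.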

How the data were processed

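Single-nucleus RNA-seq counts of whole fetal mouse brain were analysed, 1 library per genotype, made with 10x Genomics Chromium 3′ chemistry version 3.1 per the labels' protocols. The deposited matrices hold raw UMI counts of 55416 features for 9763 (wildtype-labelled) and 10811 (knockout-labelled) barcodes. The file headers name Cell Ranger 6.1.1, whereas the submitters' processing notes list Cell Ranger 3.0.1, STAR and GRCm39, with no role. The annotation, intron counting and strand are not given in the sources used here, so antisense and overlapping genes are uncertain. Gene positions are from GENCODE M39 on GRCm39 (54749 features, 98.8%, matched).

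UMIs were summed per library over the members and over other nuclei and given as CPM with exact Poisson intervals. Ratios have exact conditional binomial intervals, and shares exact binomial (Clopper-Pearson) ones. UMIs of free RNA are counted too. All intervals cover counting error only, and a floor of 3 counts was used for sums at 0. Clustering used scanpy 1.11.5 with 2000 variable genes, 15 principal components, 15 neighbours and Leiden resolution 0.5, leaving out rule genes, mitochondrial genes, Xist, Tsix, Y-linked genes, Cav1, Cav2 and Gm15581. Scrublet scored doublets library by library. Its automatic threshold marked 0 nuclei and so had not worked, and doublets were kept in the main values. The 8% highest scores were left out as an alternative. They held 29 of 285 and 19 of 201 members.

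The members, gene lists and tests were chosen with earlier results of these data known. The rule for named genes took all genes of the membership rule, the 20 highest genes over other nuclei (at least 20 UMIs per library) and the 10 lowest (at least 50 expected), and the 10 highest and 10 lowest between libraries (at least 50 UMIs over both), the last by the interval bound nearer 0. It also took list members, and Cav1, Cav2, Gm15581 and Rnf121. The comparison groups by Tfap2d, Pou4f1, Neurod2 and Neurod6, and the cluster genes shown, were chosen after their values were seen. Values of some genes are not reported here. The 2-fold calls and counting intervals were checked on counts simulated with Poisson error only, which holds no spread between nuclei or animals.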

Additional observations from a re-analysis of the deposited data

How the results depend on the processing

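The difference in share (knockout-labelled minus wildtype-labelled) was below 0 in all 10 alternatives, from -1.83 to -0.61 percentage points. The latter value came with no limit on other neuron genes. The 84 genes higher than in other nuclei became 128 without cluster 3, 154 with clusters 2 and 4 only, and 36 against nuclei with a Slc17a6 UMI. The 12 other alternatives stayed within 1.5 times. The 32 genes higher in the knockout-labelled library became 18 after thinning to 2000 UMIs, 21 without cluster 3, 11 with clusters 2 and 4 only, 189 at a minimum of 20 UMIs over both libraries and 8 at a minimum of 100. The 24 lower genes became 158 at a minimum of 20 UMIs and 9 at 100. These settings test more or fewer genes, and also admit or drop genes of low counts. The causes of all these changes were not tested. Of 1144 gene values under alternatives, 892 stayed within the counting interval of the main value and 248 lay outside it. A further 4, with a main ratio of 2-fold or more, changed sign. Smaller ratios that changed sign, such as that of Prox1 between libraries, are counted among the 892 and 248. The log2 ratio of Gm29260 between libraries became -0.73 after thinning and -0.29 without cluster 3. That of Otx2os1 became -0.13 without cluster 3 and -1.42 in clusters 2 and 4. The settings by cluster, and leaving out barcodes shared between libraries, were added after the data were seen. Scaling by the median of gene ratios moved the median by 0.02 on the log2 scale. No paired analysis was possible because each genotype has 1 library, and no library could be left out for the same reason.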
